A study of Mus musculus with 2 samples.

Results

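The genes described here encode the receptors through which retinal neurons respond to the inhibitory transmitters GABA and glycine, with a few genes for the proteins that anchor those receptors or set the chloride gradient they use. They were chosen as a fixed list of 26 gene symbols, all of which were found among the 23356 symbols of the deposited transcript table, where they occupied 28 transcript rows. The list covers 12 subunits of the GABA-A receptor, 3 rho subunits of the receptor also called GABA-C, 2 subunits of the GABA-B receptor, 5 subunits of the glycine receptor, the scaffold gene Gphn and the adhesion gene Nlgn2, and the chloride cotransporter genes Slc12a2 and Slc12a5. Other subunit genes of these families were not analysed here.

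RNA was sequenced from dissected mouse retina at postnatal day 15, with 1 triple mutant library and 1 control library. In the mutant and the control alike, Dnmt1, Dnmt3a and Dnmt3b, which encode enzymes that methylate DNA, were homozygous for floxed alleles that Cre recombinase can excise. The mutant was positive for Rx-Cre, a transgene that uses control elements of the eye field gene Rx to express Cre in retinal progenitors, and its strain label reads C57BL/7. The control was Rx-Cre negative and its strain label reads C57BL/6, so the genotypes also differ in that label. The labels do not say how many pups gave each library. With 1 library per genotype, no test between genotypes was possible and no value has a spread over animals.

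GABA-A and glycine receptors are pentameric chloride channels that open within milliseconds of transmitter binding, whereas GABA-B receptors are pairs of G protein-coupled subunits that act more slowly through potassium and calcium channels. In the retina, horizontal cells release GABA in the outer synaptic layer, and amacrine cells release GABA or glycine onto bipolar cells, ganglion cells and each other in the inner layer. The rho subunits are known for slow, sustained inhibition at the axon terminals of bipolar cells, and glycine receptors for fast inhibition of bipolar, amacrine and ganglion cells in the inner retina.

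Levels are given as FPKM, fragments per kilobase of transcript scaled by the authors' software for the size of the library, summed over the transcripts of a gene. In these libraries 1 FPKM corresponded to about 57.1 fragments per kilobase in the mutant and 48.7 in the control. Ratios are mutant over control, and bracketed ranges are 95% intervals that cover counting error only, not differences between animals. Log2 ratios were taken after adding 1 FPKM to each value, and a gene was measured where it reached 1 FPKM in at least 1 library, which 13280 genes did. Dnmt1 stood at 11.6 FPKM in the mutant library and 21.7 in the control, Dnmt3a at 56.0 and 87.4 FPKM, and Dnmt3b at 0.827 and 1.03 FPKM, so the targeted genes were lower in the mutant, although Dnmt3b was near the limit of measurement in both. Rod markers fixed for the check of tissue summed to 9091 FPKM in the mutant and 10230 in the control over 7 genes. Lens markers summed to 1.63 FPKM in the mutant and 137 in the control, pigment epithelium markers to 6.14 and 122 FPKM, and microglia markers to 113 and 27.5 FPKM, so the libraries also differed in markers of cells beside or within the retina. Cone markers summed to 722 FPKM in the mutant and 1067 in the control. That sum understates the difference of most cone markers. After adding 1 FPKM, 8 of the 9 were lower by 1.5-fold, against 3.04% of all measured genes. Their list had a median log2 ratio of -0.93. The other marker, Gnb3, was higher, with 347 FPKM in the mutant and 218 in the control. Markers of astrocytes and oligodendrocytes summed to 42.4 FPKM in the mutant and 22.9 in the control, and vessel markers to 143 and 159 FPKM. In bulk RNA, fewer cells of a type and less RNA per cell cannot be told apart.

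Most of these genes were modestly lower in the mutant library. Of the 26, 22 were measured, 3 stayed under 1 FPKM in both libraries and 1, Gabra6, was not compared by the authors for want of reads. None of the 22 reached a log2 ratio of 1 in either direction, where 1.84% of all measured genes did so upward and 0.648% downward. Adding 1 FPKM shrinks the ratios of low genes, so that a gene at 50% of its control level, such as Glra1, falls short of that limit. At the smaller limit of a 1.5-fold difference, also after adding 1 FPKM, 3 were lower (Glra1, Gabrb1 and Gabra4), against 3.04% of all measured genes, and 0 were higher, against 4.29%. By the FPKM themselves, with nothing added, 6 were lower by 1.5-fold, the other 3 being Glra4, Gabrg1 and Gabrd, against 5.59% of all measured genes, and 0 were higher, against 6.05%. Of these, Gabrb1 also passed a log2 ratio of 1, as 1.51% of all measured genes did downward. Below 0 lay 20 of the 22 log2 ratios, against 50% of all measured genes, a share that follows from their median of 0. The median log2 ratio was -0.34 over the 22 and 0 over all measured genes; the list's median was -0.18 with 5 FPKM added, -0.43 with nothing added, and -0.20 over its 17 genes of at least 5 FPKM. Under the lower quartile of all measured genes, at -0.16, lay 16 of the 22, against 25% by construction, and 6 lay under the 5th percentile at -0.49, against 5%.

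Counting error was small beside most of these differences, but that is also true of the libraries as wholes. The interval of the ratio lay wholly below 1 for 18 of the 22 and wholly above 1 for 1, Slc12a2, whereas among 12925 measured genes with known transcript lengths it lay below 1 for 34.2% and above 1 for 32.6%. In the authors' deposited table all 26 rows of these genes that were tested had a q-value of 0.999 and none was called significant. That comparison, too, rests on 1 library per genotype.

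**Figure D1:**
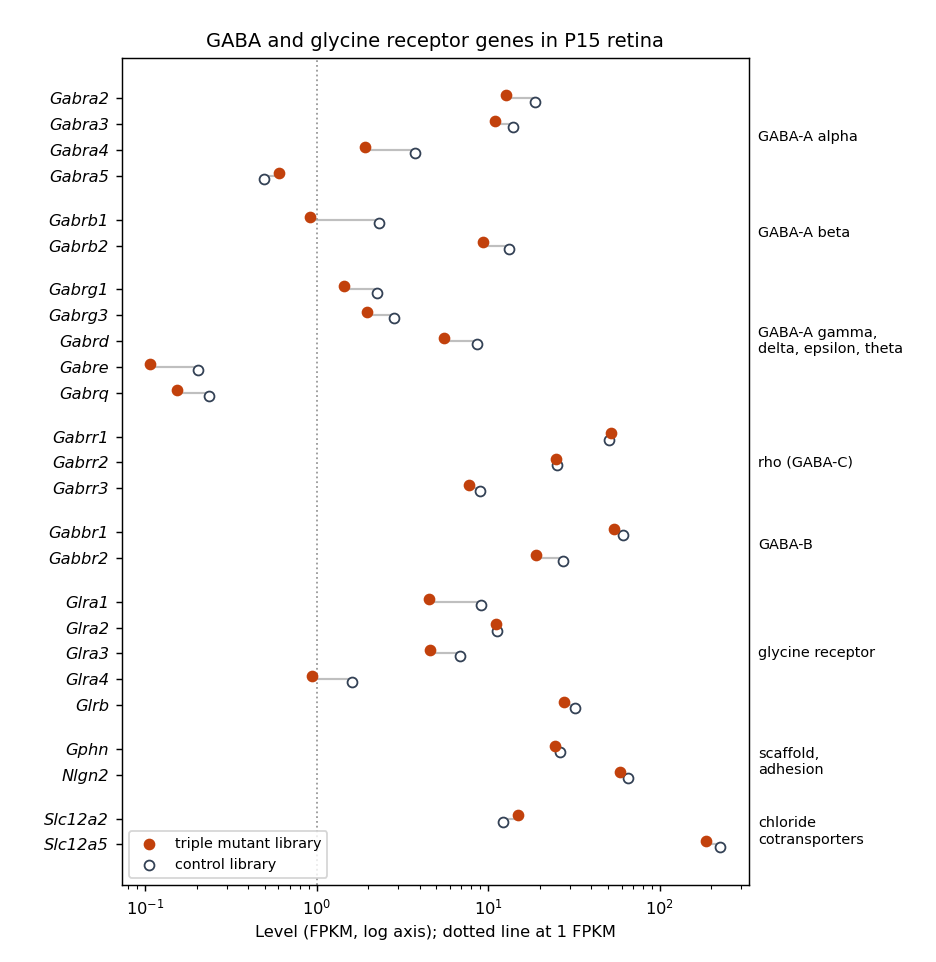
Level of each gene in FPKM on a log axis, with filled circles for the triple mutant library and open circles for the control library, grouped by role; Gabra6, listed at 0 in the control, is left out. The mutant circle lies left of the control circle for most genes, nearly on it for Gabrr1, Gabrr2 and Glra2, and right of it for Slc12a2 and the low Gabra5.

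The alpha subunits of the GABA-A receptor form the GABA and benzodiazepine binding sites together with their neighbours in the pentamer and set much of the receptor's kinetics. All 3 measured alpha genes were lower in the mutant library. Gabra2 had 12.8 FPKM in the mutant and 18.7 in the control, 68.3% of the control (64.0 to 72.9). Gabra3 had 11.0 FPKM in the mutant and 14.0 in the control, 78.7% of the control (74.2 to 83.4). Both were among the better expressed members, and Gabra2 lay at percentile 4.39 of all measured log2 ratios, against 11.5 for Gabra3. Gabra4, whose product is found mainly outside synapses in other brain regions, had 1.92 FPKM in the mutant and 3.74 in the control, 51.2% of the control (45.3 to 57.7). It had the lowest ratio of the measured alpha genes, with a log2 ratio of -0.70. Gabra5, known from the hippocampus for tonic inhibition, was under 1 FPKM in both libraries, with 0.608 FPKM in the mutant and 0.492 in the control. Its interval of 88.1% to 175% of the control included no difference. The locus the authors give for Gabra5 is 20400 bases wider than the GENCODE transcript, so its level and interval are uncertain. Gabra6, best known from cerebellar granule cells, had 0.0232 FPKM in the mutant, worth about 3 fragments, and was listed at 0 in the control, a level at or under the floor of 3 fragments, so no ratio is given.

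The beta subunits form the other face of the GABA binding site. Gabrb2, the more abundant of the listed pair, had 9.33 FPKM in the mutant library and 13.3 in the control, 70.2% of the control (66.1 to 74.4). Gabrb1 had 0.914 FPKM in the mutant and 2.32 in the control, 39.5% of the control (30.3 to 51.0). Its ratio without a pseudocount was the lowest of the 22 measured genes of the list, on about 89 fragments in the mutant and 193 in the control. Because its level is close to 1 FPKM, the pseudocount matters for Gabrb1: the log2 ratio was -0.79 with 1 FPKM added and -1.25 with 0.1 FPKM added.

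The remaining GABA-A subunits set synaptic placement and pharmacology: gamma subunits take part in clustering at synapses, and delta takes the place of gamma in receptors outside synapses that respond to low ambient GABA. Gabrd, for the delta subunit, had 5.55 FPKM in the mutant library and 8.65 in the control, 64.2% of the control (57.3 to 71.8). Gabrg1 had 1.45 FPKM in the mutant and 2.26 in the control, 64.0% of the control (55.9 to 73.2). Gabrg3 had 1.97 FPKM in the mutant and 2.82 in the control, 69.97% of the control (56.8 to 86.0). The 3 ratios lay close together and their intervals overlapped. The epsilon gene Gabre, with 0.107 FPKM in the mutant and 0.204 in the control, and the theta gene Gabrq, with 0.154 and 0.235 FPKM, were hardly expressed in either library, and the interval of each ratio included 1. Summed over the 12 listed GABA-A genes, the level was 45.8 FPKM in the mutant and 66.7 in the control, 68.7% of the control (66.5 to 70.9), and 8 of the 8 measured genes lay below 0, their median log2 ratio being -0.49.

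The rho subunits were close to their control levels. Gabrr1, the most abundant ionotropic subunit gene of the list, had 52.3 FPKM in the mutant library and 50.9 in the control, 103% of the control (99.2 to 107). Gabrr2 had 24.8 FPKM in the mutant and 25.3 in the control, 98.0% of the control (92.4 to 104). Neither interval excluded an equal level. Gabrr3 was slightly lower, with 7.75 FPKM in the mutant and 8.97 in the control, 86.4% of the control (76.8 to 97.1). The summed rho level was 84.9 FPKM in the mutant and 85.1 in the control, 99.7% of the control (96.7 to 103), and this interval does not overlap that of the summed GABA-A genes. Whether the classes differ between genotypes beyond these libraries could not be tested.

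**Figure D2:**
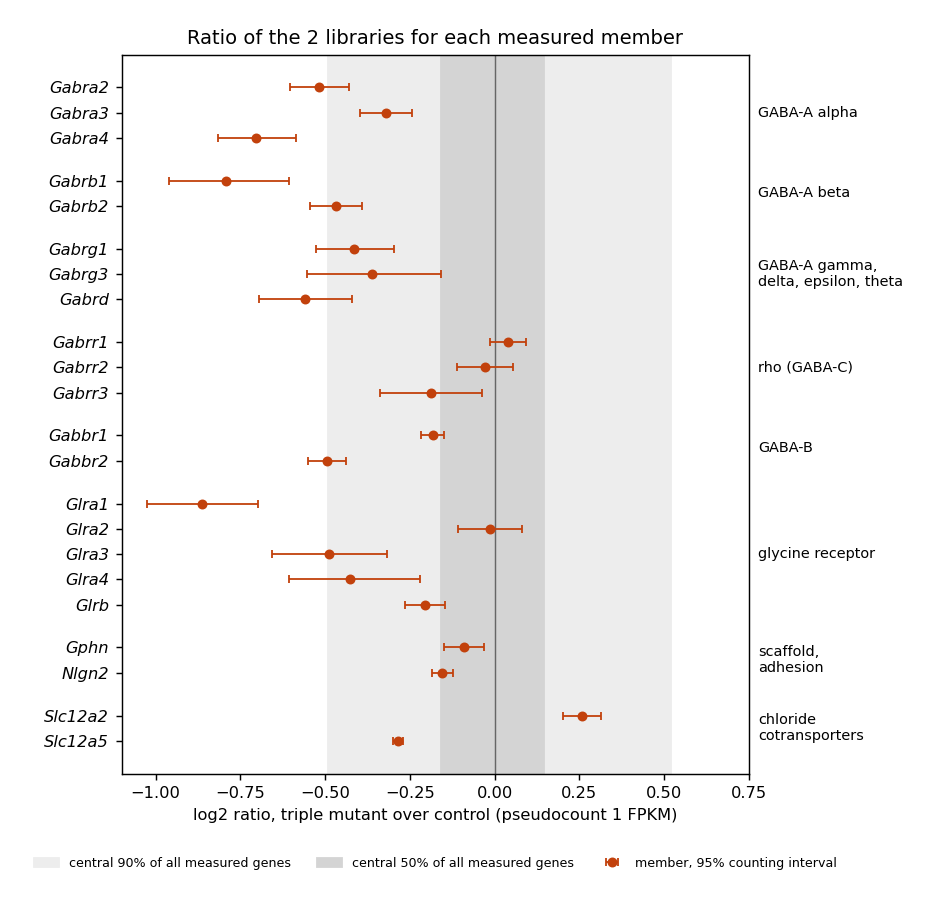
Log2 ratio of the triple mutant over the control library for the 22 measured genes, after adding 1 FPKM, with 95% counting intervals; the darker and lighter bands hold the central 50% and 90% of all measured genes. The GABA-A genes lie left of the darker band, Gabrr1, Gabrr2 and Glra2 lie inside it, and Slc12a2 alone lies to its right.

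Of the GABA-B subunits, Gabbr1 carries the GABA binding site and Gabbr2 couples to the G protein and brings the pair to the cell surface. Gabbr1 had 53.9 FPKM in the mutant library and 61.4 in the control, 87.9% of the control (85.8 to 90.1). Gabbr2 had 19.1 FPKM in the mutant and 27.3 in the control, 69.9% of the control (67.1 to 72.9). The subunits thus differed unequally, although the receptor needs both: the ratio of Gabbr1 to Gabbr2 was 2.82 in the mutant (2.73 to 2.92) and 2.25 in the control (2.18 to 2.32).

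The glycine receptor genes ranged from 50% to 99.0% of their control levels. The alpha subunits bind glycine, and the beta subunit, encoded by Glrb, ties the receptor to the gephyrin scaffold. Glra1 (chromosome 11, 55514238 to 55608198, minus strand, GRCm38), the alpha subunit of mature synapses in spinal cord, had 4.54 FPKM in the mutant library and 9.08 in the control, 50% of the control (43.5 to 57.4). With a log2 ratio of -0.86 after adding 1 FPKM, Glra1 was the lowest of the 22 measured genes and lay at percentile 1.002 of all measured genes. Glra2, the alpha subunit typical of immature neurons in spinal cord and also expressed in mature retina, had 11.1 FPKM in the mutant and 11.3 in the control, 99.0% of the control (92.2 to 106). Glra3 had 4.59 FPKM in the mutant and 6.84 in the control, 67.1% of the control (58.1 to 77.4). Glra2 was thus level between the libraries while its close relatives Glra1 and Glra3 were lower. Glra4 was near the limit, with 0.948 FPKM in the mutant and 1.62 in the control, 58.7% of the control (44.4 to 77.1), and the locus the authors' table gives for it is 47946 bases wider than the GENCODE transcript, so its level is uncertain. Glrb, the most abundant subunit of the class, had 27.6 FPKM in the mutant and 31.9 in the control, 86.4% of the control (82.8 to 90.04).

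The make-up of the glycine alpha pool differed between the libraries. Glra1 made up 21.4% of the summed alpha FPKM in the mutant (19.5 to 23.4) and 31.5% in the control (29.5 to 33.6). Glra2 made up 52.5% in the mutant (50.4 to 54.6) and 39.1% in the control (37.2 to 41.0), while the share of Glra3 was 21.6% in the mutant and 23.8% in the control, with overlapping intervals. Glra1 stood between Glra2 and Glra3 in the order of alpha levels in the control and beside Glra3 in the mutant, where the 2 could not be ranked. The ratio of Glra2 to Glra1 was 2.45 in the mutant (2.18 to 2.76) and 1.24 in the control (1.12 to 1.37), and the ratio of Glrb to Glra1 was 6.07 in the mutant (5.43 to 6.80) and 3.52 in the control (3.22 to 3.84).

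No share in the other classes differed by as many percentage points as those of Glra1 and Glra2, but some of their intervals did not overlap either. Among the listed GABA-A alpha genes, Gabra2 held 48.7% of the summed FPKM in the mutant and 50.7% in the control, with overlapping intervals. Gabra3 held 41.8% in the mutant (40.3 to 43.2) and 37.8% in the control (36.5 to 39.1). Gabra4 held 7.28% in the mutant (6.64 to 7.98) and 10.1% in the control (9.44 to 10.9). Of the GABA-B FPKM, Gabbr1 held 73.8% in the mutant (73.2 to 74.5) and 69.2% in the control (68.5 to 69.9). Gabrr1 held 61.6% of the rho FPKM in the mutant and 59.7% in the control. The order of the genes within each of these classes was the same in both libraries.

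**Figure D3:**
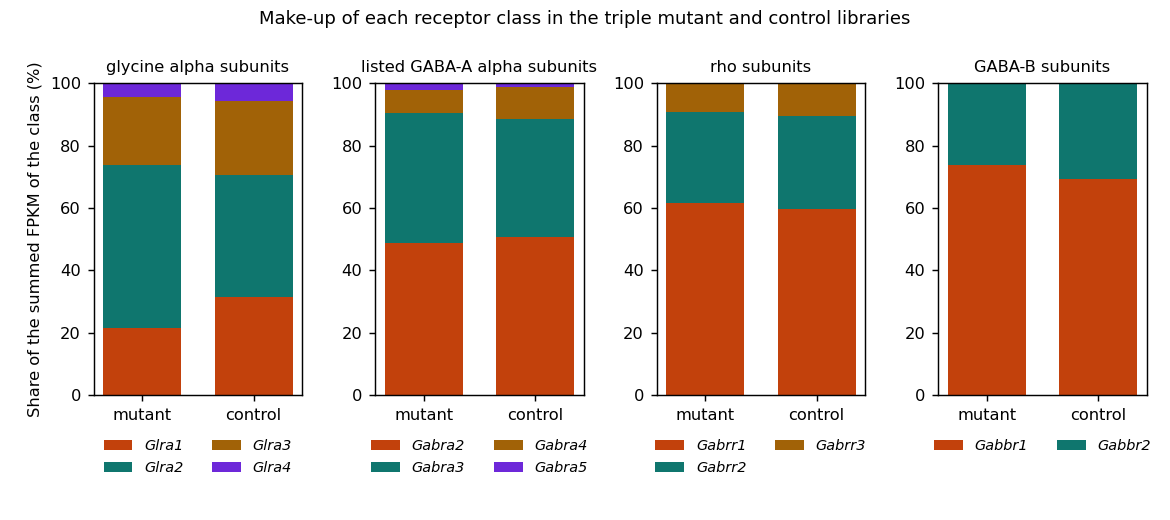
Share of the summed FPKM of each receptor class carried by each gene, as stacked bars for the triple mutant library and the control library. The bar of Glra1 is shorter in the mutant, at 21.4% against 31.5% in the control, whereas the rho bars are nearly alike.

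Gephyrin, encoded by Gphn, forms the lattice under inhibitory synapses that holds glycine receptors and many GABA-A receptors, and neuroligin 2, encoded by Nlgn2, is the adhesion protein of those synapses. Gphn had 24.6 FPKM in the mutant library and 26.2 in the control, 93.7% of the control (89.8 to 97.8). Nlgn2 had 58.6 FPKM in the mutant and 65.3 in the control, 89.7% of the control (87.8 to 91.7). Both were closer to the control than the GABA-A subunits were. Gphn was the only member with more than 1 transcript at a measurable level, and the transcripts differed in opposite directions. NM_145965 had 18.7 FPKM in the mutant and 17.3 in the control, and NM_172952 had 5.89 FPKM in the mutant and 8.89 in the control, so that NM_145965 carried 76.0% of Gphn in the mutant and 66.1% in the control. The split of shared fragments between transcripts is an estimate by the authors' software, and its error is not in the counting intervals.

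Whether GABA and glycine inhibit depends on the chloride gradient. Slc12a5 (the exporter KCC2) lowers the chloride level inside neurons, and Slc12a2 (the importer NKCC1) raises that level. Slc12a5 was the most abundant gene of the list, with 185 FPKM in the mutant library and 226 in the control, 82.0% of the control (81.1 to 82.9). Slc12a2 had 14.9 FPKM in the mutant and 12.3 in the control, 121% of the control (116 to 126), and was the only measured member with an interval above 1. The cotransporters therefore lay on opposite sides of an equal level. The ratio of Slc12a5 to Slc12a2 was 12.4 in the mutant (12.1 to 12.8) and 18.4 in the control (17.8 to 19.0). Slc12a2 is also expressed by glia and other non-neuronal cells. Mueller glia markers had 3 of 10 genes below 0 and a summed level of 2927 FPKM in the mutant and 2587 in the control, with none at 0. They were mixed: 3 were higher by 1.5-fold, against 4.29% of all measured genes, and 2 were lower, against 3.04%. The part of these cells in the result was not tested.

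The members lie on 12 chromosomes, with several subunit genes side by side. On chromosome 5, Gabrg1, Gabra2, Gabra4 and Gabrb1 follow each other within 70751047 to 72149037 (GRCm38), and their log2 ratios were -0.41, -0.52, -0.70 and -0.79. Gabra4 and Gabrb1, on opposite strands, overlap at their 5′ ends by 28 exonic bases in the GENCODE annotation, but the transcript models in the authors' deposited table, where Gabrb1 begins further downstream, do not overlap. On chromosome 4, Gabrr2 and Gabrr1 are 36.7 kb apart, with log2 ratios of -0.03 and 0.04. On chromosome 7, Gabrg3 and Gabra5 are neighbours with log2 ratios of -0.36 and 0.11, but Gabra5 was under 1 FPKM and its level is uncertain. Neighbouring genes can be expressed in the same cells, so like ratios of neighbours are a description.

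The promoter windows of the neighbouring pairs are shown because 1 pair was lower in the mutant library and the other was level, and because CG pairs are the sites that the deleted enzymes methylate. Each window runs from 250 bases before to 50 bases after the gene's start in RefSeq (GRCm38.p6) and is written 5′ to 3′ on the gene's strand, with each CG pair in capitals. The windows are chr5:71658259-71658558 (minus) for Gabra4, chr5:71699682-71699981 (plus) for Gabrb1, chr4:33132306-33132605 (plus) for Gabrr1 and chr4:33062862-33063161 (plus) for Gabrr2.
Gabra4: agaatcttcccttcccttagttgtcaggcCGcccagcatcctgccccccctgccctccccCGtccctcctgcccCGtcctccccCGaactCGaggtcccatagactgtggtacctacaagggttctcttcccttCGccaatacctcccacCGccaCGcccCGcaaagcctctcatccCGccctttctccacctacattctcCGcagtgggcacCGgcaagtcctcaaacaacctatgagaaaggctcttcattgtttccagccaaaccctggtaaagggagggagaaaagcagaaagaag
Gabrb1: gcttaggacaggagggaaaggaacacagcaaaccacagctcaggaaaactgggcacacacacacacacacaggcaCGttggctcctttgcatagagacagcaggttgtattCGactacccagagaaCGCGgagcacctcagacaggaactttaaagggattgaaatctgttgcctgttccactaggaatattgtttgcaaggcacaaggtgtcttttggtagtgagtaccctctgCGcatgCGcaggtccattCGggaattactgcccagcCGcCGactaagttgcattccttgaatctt
Gabrr1: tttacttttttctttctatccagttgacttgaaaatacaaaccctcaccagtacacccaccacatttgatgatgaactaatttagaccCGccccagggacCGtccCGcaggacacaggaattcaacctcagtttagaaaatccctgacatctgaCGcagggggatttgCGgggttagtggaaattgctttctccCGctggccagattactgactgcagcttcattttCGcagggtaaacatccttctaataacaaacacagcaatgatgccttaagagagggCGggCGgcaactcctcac
Gabrr2: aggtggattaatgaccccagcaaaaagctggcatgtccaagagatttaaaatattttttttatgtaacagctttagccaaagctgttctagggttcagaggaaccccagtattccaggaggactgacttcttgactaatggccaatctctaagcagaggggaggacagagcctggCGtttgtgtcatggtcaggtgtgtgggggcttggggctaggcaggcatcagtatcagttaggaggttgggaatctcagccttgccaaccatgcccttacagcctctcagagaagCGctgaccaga

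These windows hold 12 CG pairs for Gabra4, 9 for Gabrb1, 9 for Gabrr1 and 2 for Gabrr2, so that the lower pair and the level pair overlap in CG count. Promoter windows were matched by symbol for 23 members; Gabrd, Glra1 and Slc12a2 have no entry. Of the 23, 21 began within 1000 bases of the start the deposited table implies, and 17 of those belonged to measured genes. Over these 17, the median was 11 CG pairs, against 7 over all 32851 windows, and the range ran from 0 for Gabra3 to 46 for Gabbr2. A CG pair occurs in 94.6% of all windows and at least 10 in 43.5%. The 8 measured members with fewer than 10 CG pairs had a median log2 ratio of -0.25, and the 9 with 10 or more a median of -0.36. Both sets held genes near an equal level and genes that were lower. The GC box GGGCGG, searched on both strands and itself containing a CG pair, occurred in 12 of the 17 windows, or 70.6%, against 35.7% of all windows. All windows were taken whatever the level of their genes, whereas the 17 belong to measured genes. The differences in CG pairs and GC boxes therefore cannot be read as a trait of these receptor genes. Methylation was not measured in these data.

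**Figure D4:**
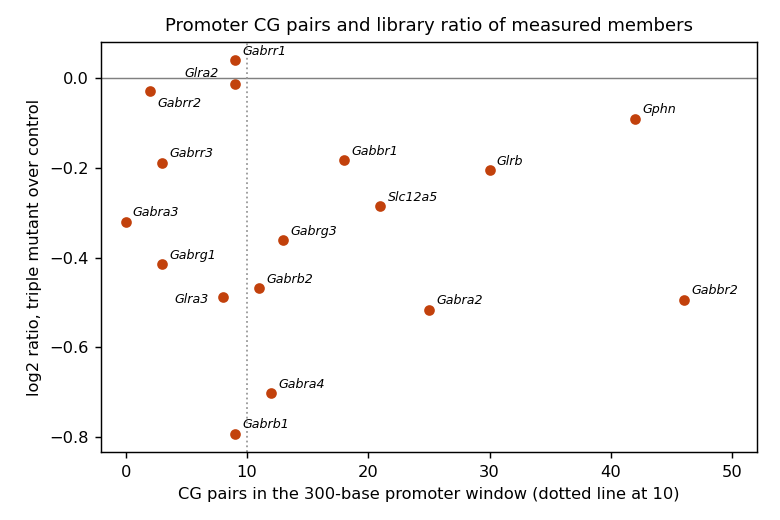
Number of CG pairs in the 300-base promoter window (x axis) and log2 ratio of the triple mutant over the control library (y axis) for the 17 measured members with a matched window. Gabrb1 and Gabrr1 have 9 CG pairs each and lie at opposite ends of the ratios, at -0.79 and 0.04.

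The genes that make, load and clear GABA and glycine were compared as the presynaptic side of the same synapses. Counts of genes past 1.5-fold in these lists and in the marker lists are after adding 1 FPKM. Where the FPKM themselves give another count, it is stated. Over all measured genes, 50% lay below 0, 3.04% were lower by 1.5-fold and 4.29% were higher, or 5.59% and 6.05% with nothing added. Of 9 genes for GABA synthesis, packaging, uptake and breakdown, all were measured, 7 lay below 0, 1 was lower by 1.5-fold and 0 were higher, with a median log2 ratio of -0.19. Gad1, for the larger GABA-synthesizing enzyme, had 73.6 FPKM in the mutant library and 106 in the control, 69.3% of the control. The uptake transporter gene Slc6a11, with 98.9 FPKM in the mutant and 101 in the control, differed less. The gene past 1.5-fold was Slc6a13, for a transporter also known from the meninges and other non-neuronal cells, with 2.72 FPKM in the mutant and 4.82 in the control. Of the glycine transporter genes, Slc6a9 had 87.2 FPKM in the mutant and 90.4 in the control, and the neuronal Slc6a5 had 2.97 and 4.20 FPKM.

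Partners of the receptors were mixed. Of 26 measured genes for scaffolds, adhesion proteins and receptor trafficking, 18 lay below 0, with a median of -0.11. By 1.5-fold, 1 was lower, against 3.04% of all measured genes, and 0 were higher, against 4.29%. That gene was Igsf9b, for an adhesion protein of inhibitory synapses, with 2.36 FPKM in the mutant and 4.76 in the control. The most abundant were Gabarapl1, with 133 FPKM in the mutant and 191 in the control, Gabarap, with 100.2 and 83.5 FPKM, and Hap1, with 99.4 and 86.4 FPKM. Gabarap and Gabarapl1, related genes of receptor trafficking and autophagy, thus differed in opposite directions.

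Of 12 measured GABA-B partners and effectors, 8 lay below 0, 3 were lower by 1.5-fold and 1 was higher, with a median of -0.30. Kctd16, for an auxiliary subunit of the GABA-B receptor, had 2.48 FPKM in the mutant library and 5.75 in the control, 43.2% of the control. The potassium channel genes Kcnj3, with 4.13 FPKM in the mutant and 8.25 in the control, and Kcnj9, with 20.7 and 32.9 FPKM, were the others lower by 1.5-fold; their channels open on GABA-B activation. With nothing added, the count was 4, the further gene being Kcnj5, for a potassium channel of the same family, with 3.23 FPKM in the mutant and 5.17 in the control. The gene higher by 1.5-fold was Gnai2, for an inhibitory G protein alpha subunit that many cell types express, with 187 FPKM in the mutant and 123 in the control. Gnao1 had 200.4 FPKM in the mutant and 195 in the control, and Gnai3 had 19.8 and 15.4 FPKM.

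Of 17 further genes of chloride transport and its regulation, 14 were measured and 5 of these lay below 0, with 0 past 1.5-fold either way and a median of 0.08. With nothing added, 1 was lower by 1.5-fold, the kinase gene Wnk4, with 4.88 FPKM in the mutant library and 7.35 in the control. Carbonic anhydrase 2, encoded by Car2, had 399 FPKM in the mutant library and 279 in the control, the chloride-proton exchanger gene Clcn3 had 72.8 and 65.6 FPKM, and the kinase gene Wnk1, which regulates the cotransporters, had 29.1 and 29.3 FPKM. Slc12a2 and Slc12a5 therefore lay within the range of this list, from -0.51 to 0.51.

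Marker genes of the inner retinal neurons that carry these receptors differed by cell type. The medians of the ganglion, amacrine and horizontal cell lists were below 0, and that of the bipolar list was not. Of all measured genes, 50% lay below 0 and, after adding 1 FPKM, 3.04% were lower and 4.29% higher by 1.5-fold. Of 14 ganglion cell markers, all were measured and 14 lay below 0, 6 by 1.5-fold (7 with nothing added), with a median log2 ratio of -0.56 and a summed level of 807 FPKM in the mutant library and 1193 in the control. The 3 with the lowest log2 ratios after adding 1 FPKM were the glutamate transporter gene Slc17a6 (16.2 FPKM in the mutant and 27.7 in the control), Nrn1 (33.1 and 51.6 FPKM) and Nefl (236 and 365 FPKM). With nothing added, Slc17a6 was followed by the transcription factor genes Pou4f2 (3.36 FPKM in the mutant and 5.61 in the control) and Pou4f3 (2.55 and 4.25 FPKM). Of 12 amacrine markers, 10 lay below 0 and 3 were lower by 1.5-fold, with a median of -0.19 and a summed level of 121 FPKM in the mutant and 142 in the control. The 3 were Chat (3.44 and 7.41 FPKM) and Slc18a3 (3.74 and 6.44 FPKM), of the cholinergic amacrine cells, and the neuropeptide gene Sst (3.34 and 6.35 FPKM). Of 5 horizontal cell markers, 4 lay below 0 and 2 were lower by 1.5-fold, Calb1 (20.5 and 42.5 FPKM) and Gja10 (1.55 and 3.48 FPKM), with a median of -0.40 and a summed level of 28.9 FPKM in the mutant and 54.7 in the control. Of 13 bipolar markers, 5 lay below 0, 1 was lower by 1.5-fold (Lrit3, 24.5 and 40.5 FPKM) and 1 higher (Pcp2, 386 and 229 FPKM), with a median of 0.06 and a summed level of 1224 FPKM in the mutant and 1014 in the control. No marker of these 4 lists was at 0 in either library. The GABA-A median of -0.49 lay between those of the ganglion and horizontal cell markers, and the rho median of -0.03 beside that of the bipolar markers. The part of these cell types in the receptor differences was not tested.

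**Figure D5:**
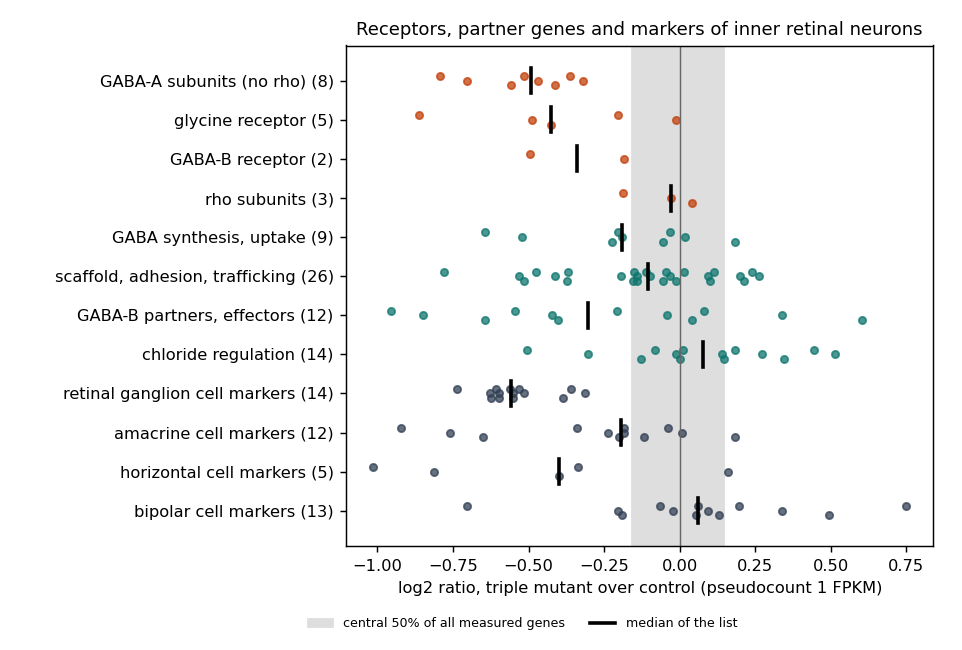
Log2 ratio of the triple mutant over the control library for each measured gene of the receptor classes, the partner lists and the marker lists (number of genes in brackets), with black bars at list medians and a band holding the central 50% of all measured genes. Ganglion cell markers and GABA-A genes lie left of the band, with medians of -0.56 and -0.49, and the rho and bipolar medians lie inside it, at -0.03 and 0.06.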

How the data were processed

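Total RNA was isolated from dissected retinas with a column kit and sequenced libraries came from a service company, per the labels' protocols. The submitters' processing notes name TopHat2 2.0.8, Cuffdiff 2.1.1 and the build mm10; annotation, read layout and strandedness are not given in the sources used. Deposited values are FPKM per RefSeq transcript, with the authors' q-value for each row, in 2 tables, per the file headers. Of these, the table with symbols (30608 rows) was the main one and the other (33362 rows) an alternative, with symbols matched by identifier for 98.4% of its rows.

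FPKM was summed over a gene's transcripts. Genes entered with 1 or more transcripts of status OK, provided no transcript was marked FAIL or HIDATA, which held for 15318 genes. Fragments were recovered from the steps between low values: of single-transcript genes of at least 3000 bases whose span matched GENCODE M21 within 10 bases, 117 of 118 low mutant values and 129 of 129 low control values were whole multiples within 10% of a step, assuming a fragment length of 150 bases. Where the file's span was shorter than the GENCODE transcript (14 of 28 rows of these genes), the missing bases were taken off its length; for Gabrb1 that is 11877 bases and for Gabrg3 8094, so FPKM there covers a shorter model. Intervals of a gene's ratio are exact binomial (Clopper-Pearson), and those of sums, shares and ratios of genes use a normal approximation on the log or logit scale. The size rule and intervals were tried on simulated counts that held counting error only. That trial cannot speak to differences between animals. The planned comparison of protein sequences was not run.

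All listed genes were named. Of each partner list, the 3 of highest mean FPKM were named by rule, as were genes past a log2 ratio of 1 (Calb1 in the inner retinal marker lists); some are not reported here. Genes named for passing 1.5-fold, and the other genes named from these lists, were chosen after their values were seen. The genes and lists were chosen with earlier results of these data known. Python 3.11.15, pandas 2.3.3, scipy 1.17.1 and matplotlib 3.10.9 were used.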

Additional observations from a re-analysis of the deposited data

How the results depend on the processing

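No paired analysis was possible because there was 1 library per genotype, and for the same reason no library could be left out. Past a log2 ratio of 1, the count of lower genes of the list was 0, but 1 with a pseudocount of 0.1 or with none (Gabrb1), 3 with the 1.5-fold rule and 6 with that rule and no pseudocount. The list's median of -0.34 was -0.18 with a pseudocount of 5, -0.43 with none and -0.20 at a minimum of 5 FPKM, which leaves out 5 of the 22 genes. Over all genes, 245 higher and 86 lower became 390 and 180 with a pseudocount of 0.1, 92 and 33 with 5, 156 and 56 at a minimum of 5 FPKM, 570 and 404 with the 1.5-fold rule, 408 and 201 with no pseudocount, and 803 and 743 with the 1.5-fold rule and no pseudocount. The settings with no pseudocount were chosen after seeing the data. The pseudocount changes these by construction. Of the 22 measured genes, 19 kept the sign of their log2 ratio in all alternatives. Gabrr2 (-0.03 to 0.03), Glra2 (-0.01 to 0.04) and Gphn (-0.09 to 0.10) did not. Most alternatives could not change a sign: pseudocounts and filters never do, and the centring and rescaling hardly moved any value. Only the second table and, for Gphn, the choice of transcript put signs to a trial. The second table moved the median of all genes by 0.05. Of 193 values of single genes under alternatives, 167 stayed within the counting interval. Many of these could not leave it, because the filters, the centring and, for single-transcript genes, the choice of transcript repeat the main value. The second table moved Slc12a5, Slc12a2, Gabbr1, Gabbr2, Glrb, Nlgn2 and Gabrr1 outside their intervals. Genes under about 1 FPKM rest on few fragments, and Gabra5, Gabre and Gabrq could not be told from an equal level at this depth.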
